A study of Mus musculus with 8 samples.

Results

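The genes described here are 8 genes of the neutrophil granule and calprotectin programme, followed across libraries of sorted mouse eosinophils. They were chosen by symbol (S100a8, S100a9, Lcn2, Ngp, Camp, Mmp8, Mmp9 and Csf3r), and each symbol matched 1 Ensembl gene among the 54446 gene rows of the count tables. The libraries come from C57BL/6 mice of a study on lung eosinophils in an asthma model and were made by CEL-Seq, in which RNA is amplified linearly and sequenced from its 3' end. SiglecFhi/CD101+ eosinophils had 2 libraries (replicates 1 and 2), Siglec-Fint/CD101- eosinophils 2 (replicates 1 and 2) and resident eosinophils 4 (replicates 3 to 6). The subsets are named for Siglec-F, a lectin that mouse eosinophils carry on their surface, and for CD101, an immunoglobulin-like membrane protein. The labels name no allele, agent, time, age or animal for any group, so a difference in treatment and a difference between cell subsets cannot be told apart.

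Neutrophils store antimicrobial proteins in granules that are filled in turn as the cell matures in the bone marrow. S100A8 and S100A9 join into calprotectin, a calcium-binding heterodimer of the neutrophil cytosol that sequesters zinc and manganese from microbes and signals through TLR4. Lipocalin-2 binds bacterial siderophores, and in the lung it is made by epithelial cells and macrophages as well as by neutrophils. NGP and CAMP are related proteins of the secondary granules, MMP8 and MMP9 are matrix-degrading proteases of secondary and tertiary granules, and Csf3r encodes the receptor through which G-CSF drives neutrophil production.

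On GRCm38, by the GENCODE annotation, S100a8 (ENSMUSG00000056054; chromosome 3, 90668978 to 90670035) and S100a9 (ENSMUSG00000056071; chromosome 3, 90692632 to 90695721) lie on opposite strands with a gap of 22.6 kb. Ngp (ENSMUSG00000032484; chromosome 9, 110419747 to 110423012) and Camp (ENSMUSG00000038357; chromosome 9, 109847379 to 109849617) are 570.1 kb apart. Mmp8 (ENSMUSG00000005800) lies on chromosome 9 from 7558456 to 7568485, and Mmp9 (ENSMUSG00000017737) on chromosome 2 from 164940780 to 164955850. Lcn2 (ENSMUSG00000026822) lies on chromosome 2 from 32384633 to 32388252, and Csf3r (ENSMUSG00000028859) on chromosome 4 from 126024550 to 126044440. All 8 are protein-coding, and 0 of them overlap another annotated gene, so their reads are not shared with an antisense partner in that annotation.

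Promoter windows of 300 bases (250 before and 50 after the RefSeq start, GRCm38.p6) were at hand for 7 of the 8 genes. The 5 below belong to the genes whose values differ most in kind: the calprotectin pair, which was counted in every library, Lcn2, which had more counts than any other of the 8 genes in each subset library, and Ngp with Camp, whose counts sat almost wholly in 1 library. The windows are S100a8 at chr3:90668821-90669120 (plus strand), S100a9 at chr3:90695672-90695971 (minus), Lcn2 at chr2:32387690-32387989 (minus), Ngp at chr9:110419558-110419857 (plus) and Camp at chr9:109849407-109849706 (minus). Capitals mark matches, on either strand, to TATAAA (the TATA box), TTGCNNAA (a core of sites of C/EBP factors, of which C/EBP epsilon is needed in mice for secondary granule genes) and GAGGAA (a core of sites of PU.1, a myeloid factor). In the S100a8 window, 1 PU.1 core match runs directly into the TATA box match.
S100a8: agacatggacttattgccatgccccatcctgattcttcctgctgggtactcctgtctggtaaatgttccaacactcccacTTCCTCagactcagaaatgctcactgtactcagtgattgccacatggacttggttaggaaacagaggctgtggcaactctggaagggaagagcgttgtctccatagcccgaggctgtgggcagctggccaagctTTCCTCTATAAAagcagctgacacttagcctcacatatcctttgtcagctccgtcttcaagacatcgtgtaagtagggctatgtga
S100a9: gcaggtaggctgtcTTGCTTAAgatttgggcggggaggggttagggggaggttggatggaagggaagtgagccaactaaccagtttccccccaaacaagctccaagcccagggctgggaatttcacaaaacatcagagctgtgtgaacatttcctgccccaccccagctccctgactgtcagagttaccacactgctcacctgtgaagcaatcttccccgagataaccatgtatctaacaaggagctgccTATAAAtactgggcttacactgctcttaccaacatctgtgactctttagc
Lcn2: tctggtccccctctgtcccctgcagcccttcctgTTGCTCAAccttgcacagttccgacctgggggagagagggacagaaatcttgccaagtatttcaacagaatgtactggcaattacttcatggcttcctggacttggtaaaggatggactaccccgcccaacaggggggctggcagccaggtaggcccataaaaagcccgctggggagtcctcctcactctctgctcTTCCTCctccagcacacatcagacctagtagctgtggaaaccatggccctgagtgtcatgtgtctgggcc
Ngp: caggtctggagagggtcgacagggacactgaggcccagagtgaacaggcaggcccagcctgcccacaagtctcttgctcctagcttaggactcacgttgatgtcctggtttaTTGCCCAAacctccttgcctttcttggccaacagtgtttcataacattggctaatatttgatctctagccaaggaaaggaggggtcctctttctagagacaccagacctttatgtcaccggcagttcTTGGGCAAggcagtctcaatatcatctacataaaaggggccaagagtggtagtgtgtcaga
Camp: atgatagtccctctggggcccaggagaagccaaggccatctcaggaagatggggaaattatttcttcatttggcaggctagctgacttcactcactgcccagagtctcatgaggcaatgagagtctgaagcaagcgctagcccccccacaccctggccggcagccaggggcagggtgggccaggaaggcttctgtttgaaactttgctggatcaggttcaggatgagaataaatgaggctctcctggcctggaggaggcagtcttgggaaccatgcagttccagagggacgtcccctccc
The TATA box letters, counted anywhere in the window, were in 3 of the 7 windows, against 13.6% of the 32544 RefSeq windows of this length. They lay at -30 from the RefSeq start in S100a8, at 1 in S100a9 and at -3, on the opposite strand, in Mmp8. TTGCNNAA was in 4 of 7 (S100a9, Lcn2, Ngp and Mmp8), against 10.8% of all windows, and GAGGAA was in 4 of 7 (S100a8, Lcn2, Mmp8 and Csf3r), against 28.1%. The Camp window held none of the 3 motifs. A match is a run of letters, not a measured binding site.

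Depth set how finely these genes could be read. Total counts were 3109428 and 1513517 in SiglecFhi/CD101+ replicates 1 and 2, 1517159 and 2990294 in those of Siglec-Fint/CD101-, and 5600610 to 11583550 in resident libraries. Outside mitochondrial genes the subset libraries held 444902 to 552121 counts, against 2137819 to 5296468 in resident libraries. A count of 3, taken as the floor, equals 1.59 to 2.18 CPM in a subset library and 0.199 to 0.501 CPM in a resident library, where CPM is the count scaled to the TMM-adjusted library size. Intervals and floors cover counting error only. The defining eosinophil genes differed in level from marker to marker. Prg2, which encodes the major basic protein of eosinophil granules, was at 38.7 and 234.8 CPM in SiglecFhi/CD101+ and 0.727 and 1.86 CPM in Siglec-Fint/CD101- libraries, against 4.95 to 15.9 CPM in resident libraries (adjusted p = 0.118 by edgeR for SiglecFhi/CD101+ against resident and 0.156 against Siglec-Fint/CD101- libraries). Epx, eosinophil peroxidase, had 25 counts in all and was at 0 in 7 of 8 libraries, and Prg3 was at 0 in all 8. Il5ra was at 0 in 6 of 8 libraries, while Ear2 was counted in all 8. Siglecf, the gene of Siglec-F, had 63 counts in SiglecFhi/CD101+ libraries and 0 in both Siglec-Fint/CD101- libraries, against 991 in resident libraries. Cd101 had 3 counts (0.835 ± 0.319 CPM) in SiglecFhi/CD101+ and 1 in Siglec-Fint/CD101- libraries, against 1095 counts (24.3 ± 13.8 CPM) in resident libraries, whose label gives no CD101 status. The subset counts were too few to tell whether the RNA of this gene followed the CD101 label, which names a surface protein. The 12 eosinophil markers summed to 163.3 and 476.3 CPM in SiglecFhi/CD101+ and 168.0 and 305.5 CPM in Siglec-Fint/CD101- libraries, against 202.4 to 493.5 CPM in resident libraries. In such bulk samples fewer cells of a type and less RNA per cell cannot be told apart. Nothing in the labels ties a replicate to an animal, and the p-values therefore describe the spread among these libraries, which may be technical.

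The 8 genes together had 640 and 231 counts in SiglecFhi/CD101+ replicates 1 and 2 and 707 and 236 in those of Siglec-Fint/CD101-, against 344, 247, 1934 and 756 in resident replicates 3 to 6. Their summed level was 240.1 ± 140 CPM in SiglecFhi/CD101+ libraries and 330.3 ± 260 CPM in Siglec-Fint/CD101- libraries (SD, n = 2 each), against 65.7 ± 49.4 CPM in resident libraries (SD, n = 4). All 4 subset libraries lay above every resident library in this sum, with 140.9 CPM in the lowest subset library (SiglecFhi/CD101+ replicate 2) against 135.6 CPM in the highest resident library (replicate 5). This separation was lost with another scaling. By library totals alone the sum was 205.8 and 152.6 CPM in SiglecFhi/CD101+ and 466.0 and 78.9 CPM in Siglec-Fint/CD101- libraries, against 61.4, 21.3, 254.9 and 68.3 CPM in resident replicates 3 to 6, so that 3 of the 4 subset libraries lay below resident replicate 5. Lcn2 carried most of that difference. Across all 8 libraries 6 of the 8 genes passed the filter on low counts, and Ngp and Camp did not.

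**Figure D1:**
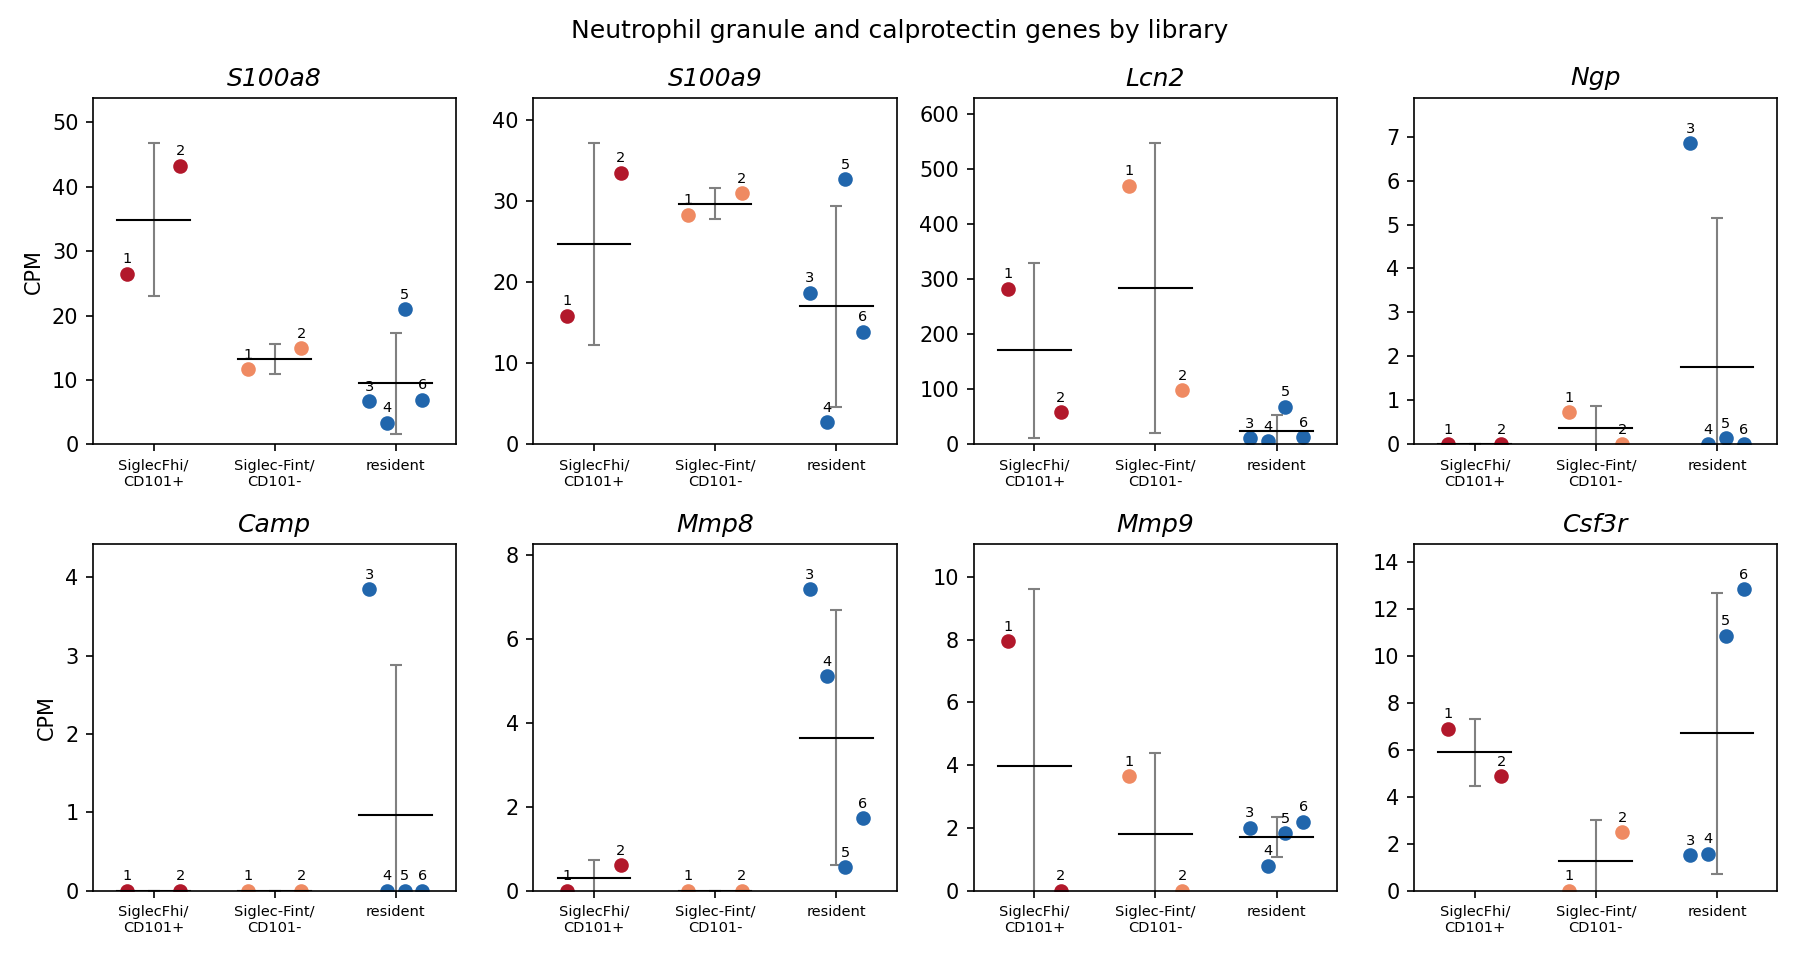
CPM of each of the 8 genes (y axis, own scale per gene) in the SiglecFhi/CD101+, Siglec-Fint/CD101- and resident libraries; points are libraries marked with their replicate number, the black line is the group mean and the grey bar ± SD, drawn down to 0 at most. Lcn2 is highest in replicate 1 of both subsets, Ngp and Camp stand out in resident replicate 3 alone, and the Mmp8 points of both subsets lie near 0.

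Lcn2, which encodes lipocalin-2, had 282.0 and 58.5 CPM in the SiglecFhi/CD101+ libraries and 469.7 and 98.1 CPM in the Siglec-Fint/CD101- libraries, against 10.7, 5.82, 68.5 and 12.7 CPM in resident replicates 3 to 6. The Siglec-Fint/CD101- libraries were both above all resident libraries, while SiglecFhi/CD101+ replicate 2 lay below resident replicate 5. By library totals alone replicate 2 of both subsets (63.4 CPM in SiglecFhi/CD101+ and 52.8 CPM in Siglec-Fint/CD101-) lay below resident replicate 5 (128.8 CPM). The log2 fold change was 3.54 ± 0.92 (SE) for Siglec-Fint/CD101- against resident libraries (unadjusted p = 0.00162; adjusted p = 0.243 in the quasi-likelihood test of edgeR, adjusted by Benjamini and Hochberg). For SiglecFhi/CD101+ against resident libraries it was 2.80 ± 0.91 (unadjusted p = 0.00769; adjusted p = 0.210 by edgeR). Neither passed the threshold of 0.05 over the 11828 genes tested. The Siglec-Fint/CD101- difference passed with DESeq2 (log2 fold change 3.87, adjusted p = 0.0477), and both passed when edgeR was run without the filter on low counts (adjusted p = 0.000538 for Siglec-Fint/CD101- and 0.00962 for SiglecFhi/CD101+). Over all alternatives the edgeR, DESeq2 and limma-voom adjusted p ran up to 0.530 for Siglec-Fint/CD101- and 0.581 for SiglecFhi/CD101+. Between the subsets the log2 fold change was -0.74 ± 1.09 (adjusted p = 0.772 by edgeR). Within a subset, replicate 1 stood 4.82 times above replicate 2 in SiglecFhi/CD101+ and 4.79 times in Siglec-Fint/CD101- libraries.

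Single libraries moved the size of the Lcn2 difference. Without Siglec-Fint/CD101- replicate 1 its log2 fold change against resident libraries was 1.96, and without SiglecFhi/CD101+ replicate 1 that of SiglecFhi/CD101+ was 1.18. Without resident replicate 5 they were 4.88 for Siglec-Fint/CD101- and 4.26 for SiglecFhi/CD101+, and 0 of these fits passed. Resident replicate 5 also held the highest level of epithelial markers (8 genes such as Sftpc and Scgb1a1, of alveolar type II and club cells), with a summed 13518 CPM. Its 10 neutrophil markers summed to 324.5 CPM, the lowest of the resident libraries. That rank rested on the marker Retnlg. Without Retnlg, a sum chosen after seeing the data, the other 9 summed to 273.6 CPM, within the resident range of 131.9 to 388.1 CPM. Set against the epithelial markers of the same library, Lcn2 had 54.6 and 12.3 counts per 1000 epithelial marker counts in SiglecFhi/CD101+ and 101.8 and 12.6 in Siglec-Fint/CD101- libraries, against 1.79, 5.88, 5.07 and 8.63 in resident libraries. All 4 subset libraries were above all 4 resident libraries on this scale, replicate 5 included. The share of all genes that separate on this scale was not computed. S100a8 and S100a9 together had 8.21 and 16.1 counts per 1000 epithelial marker counts in SiglecFhi/CD101+ and 8.67 and 5.88 in Siglec-Fint/CD101- libraries. Resident replicates 3 to 6 had 4.26, 6.20, 3.97 and 14.1, so that those groups overlapped. Per 1000 neutrophil marker counts, Lcn2 had 1066 and 52.1 counts in SiglecFhi/CD101+ and 796.5 and 62.9 in Siglec-Fint/CD101- libraries, against 10.1 to 211.1 in resident libraries, so that the groups overlapped. The part of epithelial or neutrophil RNA in the Lcn2 difference was not tested.

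Scaled to counts outside the mitochondrial genome, which took 76.4% ± 8.23 of counts in SiglecFhi/CD101+ and 76.9% ± 9.91 in Siglec-Fint/CD101- libraries, against 52.4% ± 10.04 in resident libraries, Lcn2 stood at 589.7 ± 529 CPM of such counts in SiglecFhi/CD101+ and 871 ± 768 in Siglec-Fint/CD101- libraries, against 72.6 ± 91.8 in resident libraries. In the edgeR fit without mitochondrial genes its log2 fold changes were 2.91 for SiglecFhi/CD101+ and 3.59 for Siglec-Fint/CD101- against resident libraries (adjusted p = 0.200 and 0.247). With library totals alone they were 1.52 and 2.54. The mitochondrial share moved with the groups, and its part in the levels beyond these scalings was not tested.

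S100a8, the smaller chain of calprotectin, had 26.5 and 43.3 CPM in SiglecFhi/CD101+ and 11.6 and 14.9 CPM in Siglec-Fint/CD101- libraries, against 6.68, 3.38, 21.0 and 6.92 CPM in resident replicates 3 to 6. Both SiglecFhi/CD101+ libraries were above every other library with TMM scaling, but by library totals alone replicate 1 (16.1 CPM) lay below resident replicate 5 (39.4 CPM). The Siglec-Fint/CD101- libraries lay within the resident range. The log2 fold change was 1.88 ± 1.14 (SE) for SiglecFhi/CD101+ against resident libraries (adjusted p = 0.398), 0.48 ± 1.18 for Siglec-Fint/CD101- against resident libraries (adjusted p = 0.863) and 1.39 ± 1.41 for SiglecFhi/CD101+ against Siglec-Fint/CD101- libraries (adjusted p = 0.630), all by edgeR's quasi-likelihood test. None passed. With library totals alone the Siglec-Fint/CD101- value turned to -0.69.

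S100a9, the larger chain, had 15.9 and 33.5 CPM in SiglecFhi/CD101+ and 28.4 and 31.0 CPM in Siglec-Fint/CD101- libraries, against 18.7, 2.75, 32.7 and 13.9 CPM in resident replicates 3 to 6. All 3 groups overlapped. The log2 fold change was 0.54 ± 1.12 for SiglecFhi/CD101+ against resident libraries (adjusted p = 0.852 by edgeR), 0.80 ± 1.12 for Siglec-Fint/CD101- against resident libraries (adjusted p = 0.739) and -0.27 ± 1.33 between the subsets (adjusted p = 1), and each of the 3 changed sign with library totals alone.

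The balance of the calprotectin chains, which needs no scaling between libraries, was not the same in all of them. S100a8 had 1.67 counts per S100a9 count in SiglecFhi/CD101+ replicate 1 (exact 95% counting interval 1.04 to 2.71) and 1.29 in replicate 2 (0.895 to 1.87), against 0.410 (0.214 to 0.751) and 0.480 (0.282 to 0.796) in Siglec-Fint/CD101- replicates 1 and 2. Resident replicates 3 to 6 had 0.357, 1.23, 0.640 and 0.498. The SiglecFhi/CD101+ ratios were thus the highest of the 8 libraries, and the intervals of both SiglecFhi/CD101+ libraries lay above those of the Siglec-Fint/CD101- libraries, while resident replicate 4 (interval 0.768 to 1.98) overlapped with the SiglecFhi/CD101+ libraries. The ratio was not tested over libraries. Lcn2 had 6.65 and 0.762 counts per S100a8 and S100a9 count in SiglecFhi/CD101+ libraries and 11.7 and 2.14 in Siglec-Fint/CD101- libraries, against 0.421, 0.949, 1.275 and 0.610 in resident libraries. Replicate 2 of SiglecFhi/CD101+ was the only subset library within the resident range of that ratio.

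**Figure D2:**
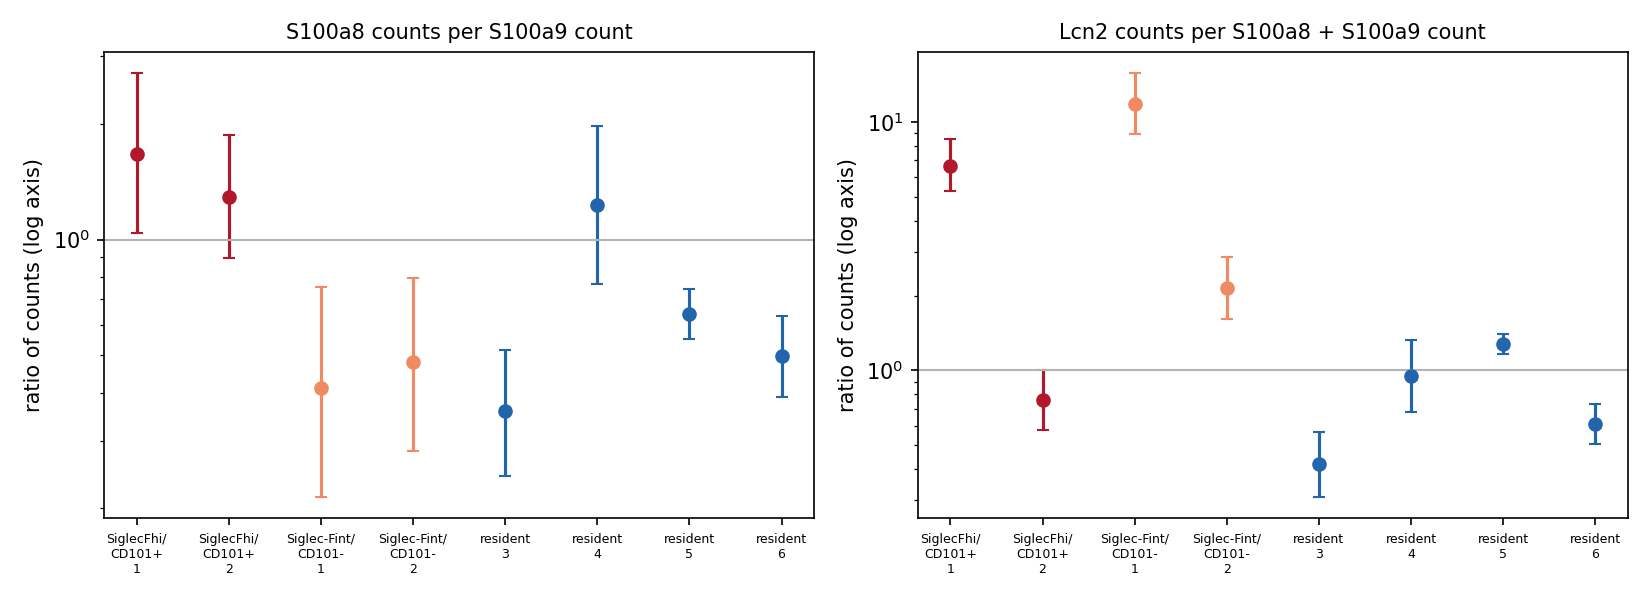
Ratio of counts within each library (log axis), for S100a8 per S100a9 on the left and Lcn2 per summed S100a8 and S100a9 on the right, with SiglecFhi/CD101+ libraries first, then Siglec-Fint/CD101- and resident libraries; points are libraries and bars are exact 95% counting intervals. The S100a8 per S100a9 ratio is 1.67 and 1.29 in the SiglecFhi/CD101+ libraries and below 1 in all others except resident replicate 4 (1.23).

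The secondary granule pair Ngp, which encodes neutrophilic granule protein, and Camp, the mouse cathelicidin, was seen almost in a single library. Ngp had 0 counts in both SiglecFhi/CD101+ libraries and 1 and 0 in the Siglec-Fint/CD101- libraries, against 41, 0, 2 and 0 in resident replicates 3 to 6. Camp had 0 counts in all 4 subset libraries, against 23, 0, 0 and 0 in resident replicates 3 to 6. In resident replicate 3 these counts equal 6.85 CPM for Ngp and 3.84 CPM for Camp, above the 1.59 to 2.18 CPM that 0 counts allow in a subset library. Over the groups the resident counts were too few to set a fold against the floor of the subsets. Without the filter on low counts edgeR gave Ngp an adjusted p of 0.510 for SiglecFhi/CD101+ and 0.842 for Siglec-Fint/CD101- against resident libraries, and Camp 0.596 and 0.733. Their difference between groups was not detectable at this depth.

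Mmp8, the neutrophil collagenase, had 0 and 1 counts in SiglecFhi/CD101+ and 0 and 0 in Siglec-Fint/CD101- libraries, against 43, 65, 8 and 26 in resident replicates 3 to 6. The resident counts equal 7.19, 5.11, 0.561 and 1.73 CPM, and resident replicate 3 was again the highest. Resident replicates 5 and 6 lay below the 2.18 and 1.86 CPM that 0 counts allow in Siglec-Fint/CD101- replicates 1 and 2, so a difference from these 2 resident libraries was not detectable at this depth. Over the whole groups, with the Siglec-Fint/CD101- group set at the floor of 3 counts, Mmp8 was at least 2.94-fold lower than in resident libraries. The SiglecFhi/CD101+ group lay 10.4-fold lower, with a 95% counting interval of 1.84 to 415. In edgeR's quasi-likelihood test the adjusted p was 0.324 for Siglec-Fint/CD101- and 0.449 for SiglecFhi/CD101+ against resident libraries. Of the 11828 tested genes 29.3% were likewise lower without overlap in Siglec-Fint/CD101- than in resident libraries.

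Mmp9, the gelatinase of tertiary granules, had 7.95 and 0 CPM in SiglecFhi/CD101+ (15 and 0 counts) and 3.64 and 0 CPM in Siglec-Fint/CD101- libraries (5 and 0 counts), against 2.01, 0.786, 1.82 and 2.19 CPM in resident replicates 3 to 6. In both subsets replicate 1 was above every resident library and replicate 2 had no count. The 0 counts allow 1.83 CPM in SiglecFhi/CD101+ and 1.86 CPM in Siglec-Fint/CD101- replicate 2. Resident replicates 4 and 5 (0.786 and 1.82 CPM) lay below that, so a difference from them was not detectable. The log2 fold change was 1.22 ± 1.87 (SE) for SiglecFhi/CD101+ (adjusted p = 0.782 by edgeR) and 0.08 ± 2.00 for Siglec-Fint/CD101- (adjusted p = 0.991) against resident libraries, and without replicate 1 of the subset concerned the sign turned in both. Mmp9 was the steadiest of the tested genes across resident libraries, with a highest value 2.79 times the lowest, where S100a8 had 6.20, Csf3r 8.53, Lcn2 11.8, S100a9 11.9 and Mmp8 12.8.

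Csf3r, the G-CSF receptor gene, had 6.89 and 4.88 CPM in SiglecFhi/CD101+ and 0 and 2.48 CPM in Siglec-Fint/CD101- libraries, against 1.503, 1.57, 10.9 and 12.8 CPM in resident replicates 3 to 6. The SiglecFhi/CD101+ libraries lay between the lower and the upper resident pair, and both were above the Siglec-Fint/CD101- libraries, which had 4 counts in all. The log2 fold change was -0.19 ± 1.65 for SiglecFhi/CD101+ and -2.39 ± 1.92 for Siglec-Fint/CD101- against resident libraries (adjusted p = 0.973 and 0.514 by edgeR), and 2.202 ± 2.07 for SiglecFhi/CD101+ against Siglec-Fint/CD101- libraries (adjusted p = 0.5995). From the 21 and 4 counts of the subsets the ratio of SiglecFhi/CD101+ to Siglec-Fint/CD101- was 4.45, with a 95% counting interval of 1.5001 to 17.8. Single libraries moved these values: between the subsets the log2 fold change was 1.19 without Siglec-Fint/CD101- replicate 1 and 8.38 without its replicate 2, and for Siglec-Fint/CD101- against resident libraries it was -1.48 and -8.68. The values without replicate 2 rest on a group with 0 counts and are no bounds. RLE normalization turned the sign of the SiglecFhi/CD101+ difference from resident libraries (0.27).

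**Figure D3:**
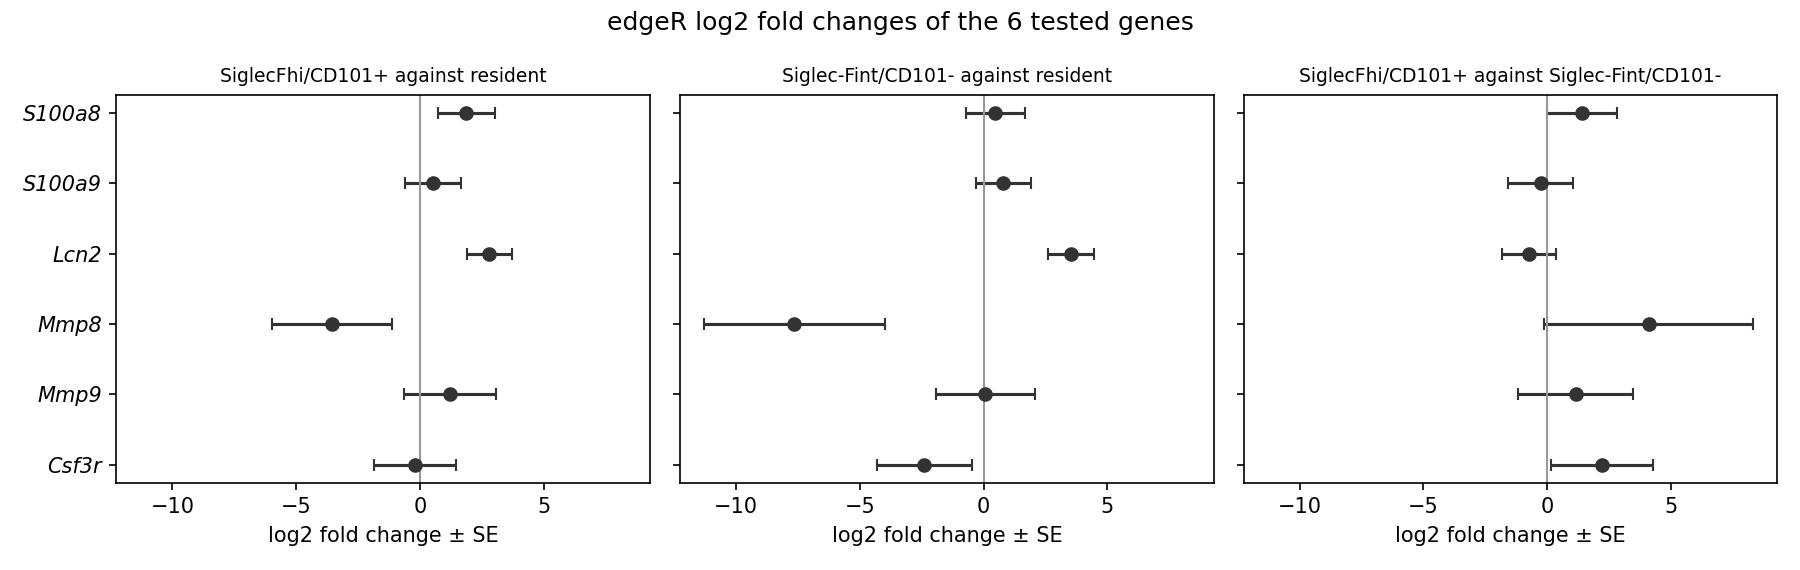
edgeR log2 fold changes (x axis) of the 6 tested genes in the 3 comparisons, 1 panel each, with bars of ± 1 SE; a value above 0 means higher in the group named first. Lcn2 lies farthest above 0 against resident libraries (2.80 and 3.54), and the bars of the low-count genes Mmp8, Mmp9 and Csf3r are the widest.

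Counted over the comparisons, 0 of the 6 tested genes passed in each of the 3, where edgeR called 0.0254% of all tested genes for SiglecFhi/CD101+ against resident, 0.0592% for Siglec-Fint/CD101- against resident (0.0338% higher and 0.0254% lower) and 0.00845% for SiglecFhi/CD101+ against Siglec-Fint/CD101- libraries. At an unadjusted p under 0.05 the count was 1 higher (Lcn2) and 0 lower against resident libraries for either subset, and 0 between the subsets. The background at that level was 3.65% of genes higher and 13.1% lower for SiglecFhi/CD101+, 1.9% higher and 13.8% lower for Siglec-Fint/CD101-, and 9.98% higher and 7.96% lower between the subsets. DESeq2 called Lcn2 for Siglec-Fint/CD101- and none of the 8 genes in the other comparisons, and limma-voom called none of the tested genes in any. The median log2 fold change of the 6 tested genes was 0.88 for SiglecFhi/CD101+ and 0.28 for Siglec-Fint/CD101- against resident libraries, beside -0.72 and -0.997 over all tested genes. Both comparisons share the resident libraries. With library totals alone the members' medians were -0.05 and -0.63, beside -1.46 and -1.96 over all genes. With DESeq2, which kept all 8 genes, they were 0.62 and -0.77, beside 0.24 and 0 over all genes, so that for Siglec-Fint/CD101- both the sign and the side of the median over all genes turned.

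Without overlap of the groups' TMM-scaled CPM values, S100a8 was higher in SiglecFhi/CD101+ than in resident libraries, as were 6.78% of all tested genes. In that comparison 0 of the 6 were lower without overlap, against 27.4% of all tested genes. Lcn2 was higher in Siglec-Fint/CD101- than in resident libraries, as were 4.46%. Mmp8 was lower in Siglec-Fint/CD101- than in resident libraries, as were 29.3%. S100a8 and Csf3r were higher in SiglecFhi/CD101+ than in Siglec-Fint/CD101- libraries, as were 15.8%. With library totals alone the separations of S100a8 and Lcn2 from resident libraries were lost, and the others stayed. Against resident libraries Mmp8 then became lower without overlap in SiglecFhi/CD101+ (0 and 0.661 CPM, lowest resident 1.05 CPM). So did Csf3r in Siglec-Fint/CD101- (0 and 1.34 CPM, lowest resident 1.61 CPM). In SiglecFhi/CD101+ replicate 2 and Siglec-Fint/CD101- replicate 1 a count of 3 lies above that lowest resident value. Neither of these 2 separations was therefore detectable at this depth. The share of all genes was not computed at that scaling.

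The make-up of the 8 genes' counts also varied from library to library. Lcn2 took 83.1% (exact binomial 95% interval 80.0 to 85.9) and 41.6% (35.1 to 48.2) of them in the SiglecFhi/CD101+ libraries and 91.4% (89.1 to 93.3) and 66.9% (60.6 to 72.9) in the Siglec-Fint/CD101- libraries, against 18.6%, 30.0%, 50.5% and 25.3% in resident replicates 3 to 6. Only resident replicate 5 (interval 48.3 to 52.8) exceeded the lowest subset library. These are shares of 3' tags and not of transcript mass.

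**Figure D4:**
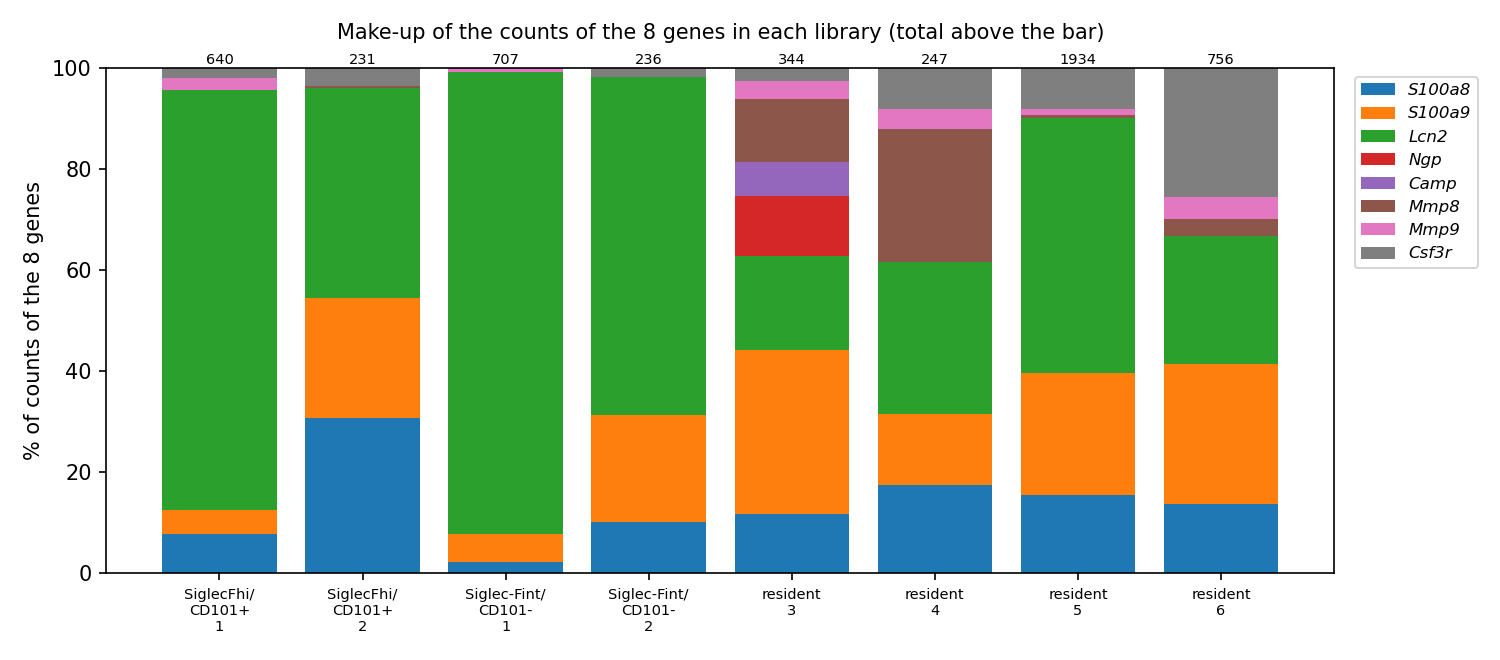
Share of the counts of the 8 genes taken by each gene (y axis, percent) in each library, SiglecFhi/CD101+ first, then Siglec-Fint/CD101- and resident; the total count of the 8 genes stands above each bar. Lcn2 fills 83.1% and 91.4% of the bars of replicate 1 of the subsets, and Ngp and Camp are visible in resident replicate 3.

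The other neutrophil genes did not form a uniform picture. Of 32 listed genes of granules, receptors and transcription factors, 18 passed the filter on low counts, and 0 passed edgeR's adjusted threshold in any comparison (smallest adjusted p 0.130). At an unadjusted p under 0.05, 1 was higher and 2 were lower for SiglecFhi/CD101+ and 3 were higher and 4 lower for Siglec-Fint/CD101- against resident libraries. Over all tested genes 3.65% were higher and 13.1% lower for SiglecFhi/CD101+, and 1.9% higher and 13.8% lower for Siglec-Fint/CD101-. Primary granule genes were seen in few libraries: Mpo, myeloperoxidase, was at 0 in 6 of 8 libraries, and Elane, neutrophil elastase, had 187 counts, all in resident replicate 5. Ltf, which encodes lactoferrin of the secondary granules beside NGP and CAMP, had 22 counts in SiglecFhi/CD101+ and 14 in Siglec-Fint/CD101- libraries, against 241 in resident libraries, of which 197 were in replicate 5 and 8 in replicate 3. The library that held the Ngp and Camp counts was thus not the one that held most Ltf. Chil1 ran from 486.0 to 1070 CPM in SiglecFhi/CD101+ and 669.6 to 1009 CPM in Siglec-Fint/CD101- libraries. Pglyrp1 ran from 0 to 88.4 CPM in SiglecFhi/CD101+ and 22.5 to 298.6 CPM in Siglec-Fint/CD101- libraries. Resident libraries held 8.96 to 500.6 CPM of Chil1 and 12.9 to 26.3 CPM of Pglyrp1. Against resident libraries, 10 of the 18 tested genes had a positive log2 fold change for SiglecFhi/CD101+ and 8 for Siglec-Fint/CD101-. Their medians were 0.41 and -0.02, above the -0.72 and -0.997 over all tested genes.

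Among receptors of neutrophils, 0 passed the adjusted threshold. Cxcr2, a receptor for neutrophil-attracting chemokines, was at 33.4 and 37.2 CPM in SiglecFhi/CD101+ libraries and without a count in either Siglec-Fint/CD101- library, against 3.93 to 12.4 CPM in resident libraries. At a floor of 3 counts for the Siglec-Fint/CD101- group it was at least 35.0-fold higher in SiglecFhi/CD101+ libraries (adjusted p = 0.199 by edgeR). Fpr1, a receptor for formylated bacterial peptides, had 0 counts in all 4 subset libraries and 22.7 to 36.5 CPM in resident libraries. It was at least 38.0-fold lower in SiglecFhi/CD101+ and 32.2-fold lower in Siglec-Fint/CD101- libraries (adjusted p = 0.130 and 0.236 by edgeR). Retnlg, a resistin-like gene abundant in neutrophils, was at 209.4 and 978.8 CPM in SiglecFhi/CD101+ and 551.8 and 1451 CPM in Siglec-Fint/CD101- libraries, against 51.0 to 449.3 CPM in resident libraries, with an adjusted p of 0.288 for Siglec-Fint/CD101- against resident libraries.

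The summed level of 10 neutrophil markers, all of them also among the 32 genes, ran from 264.5 to 1123 CPM in SiglecFhi/CD101+ and from 589.7 to 1560 CPM in Siglec-Fint/CD101- libraries, against 324.5 to 676.7 CPM in resident libraries. Retnlg made up 83.2% ± 5.67 and 93.3% ± 0.392 of those counts in the subsets, against 45.2% ± 25.4 in resident libraries. Without Retnlg, a sum chosen after seeing the data, the other 9 markers summed to 99.5 ± 62.8 CPM in SiglecFhi/CD101+ and 73.2 ± 50.1 CPM in Siglec-Fint/CD101- libraries, against 255.2 ± 106 CPM in resident libraries. This lower sum rested mainly on Il1r2, at 47.2 ± 60.8 and 45.2 ± 11.5 CPM in the subsets, against 221 ± 96.5 CPM in resident libraries. Cxcr2 went the other way in SiglecFhi/CD101+ libraries, at 35.3 ± 2.69 CPM, against 7.94 ± 3.68 CPM in resident libraries. Of the 6 tested markers, 3 had a positive and 3 a negative log2 fold change for SiglecFhi/CD101+ against resident libraries (median 0.01), and 1 a positive and 5 a negative one for Siglec-Fint/CD101- (median -1.29). The medians over all tested genes were -0.72 for SiglecFhi/CD101+ and -0.997 for Siglec-Fint/CD101-, so most genes had a negative value as well. At an unadjusted p under 0.05, 0 were higher and 1 lower for SiglecFhi/CD101+ and 1 higher and 2 lower for Siglec-Fint/CD101-, and 0 passed after adjustment. The shares of all tested genes at that level were those given above for the 8 genes. Ly6g, which defines mouse neutrophils in sorting, had 39 counts in Siglec-Fint/CD101- replicate 2 and was at 0 in the other 7 libraries, and Stfa2l1 was at 0 in 7 and Cd177 in 6 of 8 libraries. Within a library the marker sum and Lcn2 did not go together in the subsets: replicate 1, high in Lcn2, had the lower neutrophil marker sum in each. S100a8 and S100a9 had 160.3 and 68.4 counts per 1000 neutrophil marker counts in SiglecFhi/CD101+ and 67.8 and 29.5 in Siglec-Fint/CD101- libraries, against 64.7, 10.7, 165.5 and 30.8 in resident libraries. The resident range overlapped with each subset, while the lower SiglecFhi/CD101+ library (68.4) lay just above the higher Siglec-Fint/CD101- library (67.8). The part of neutrophil RNA in the calprotectin levels was not tested.

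**Figure D5:**
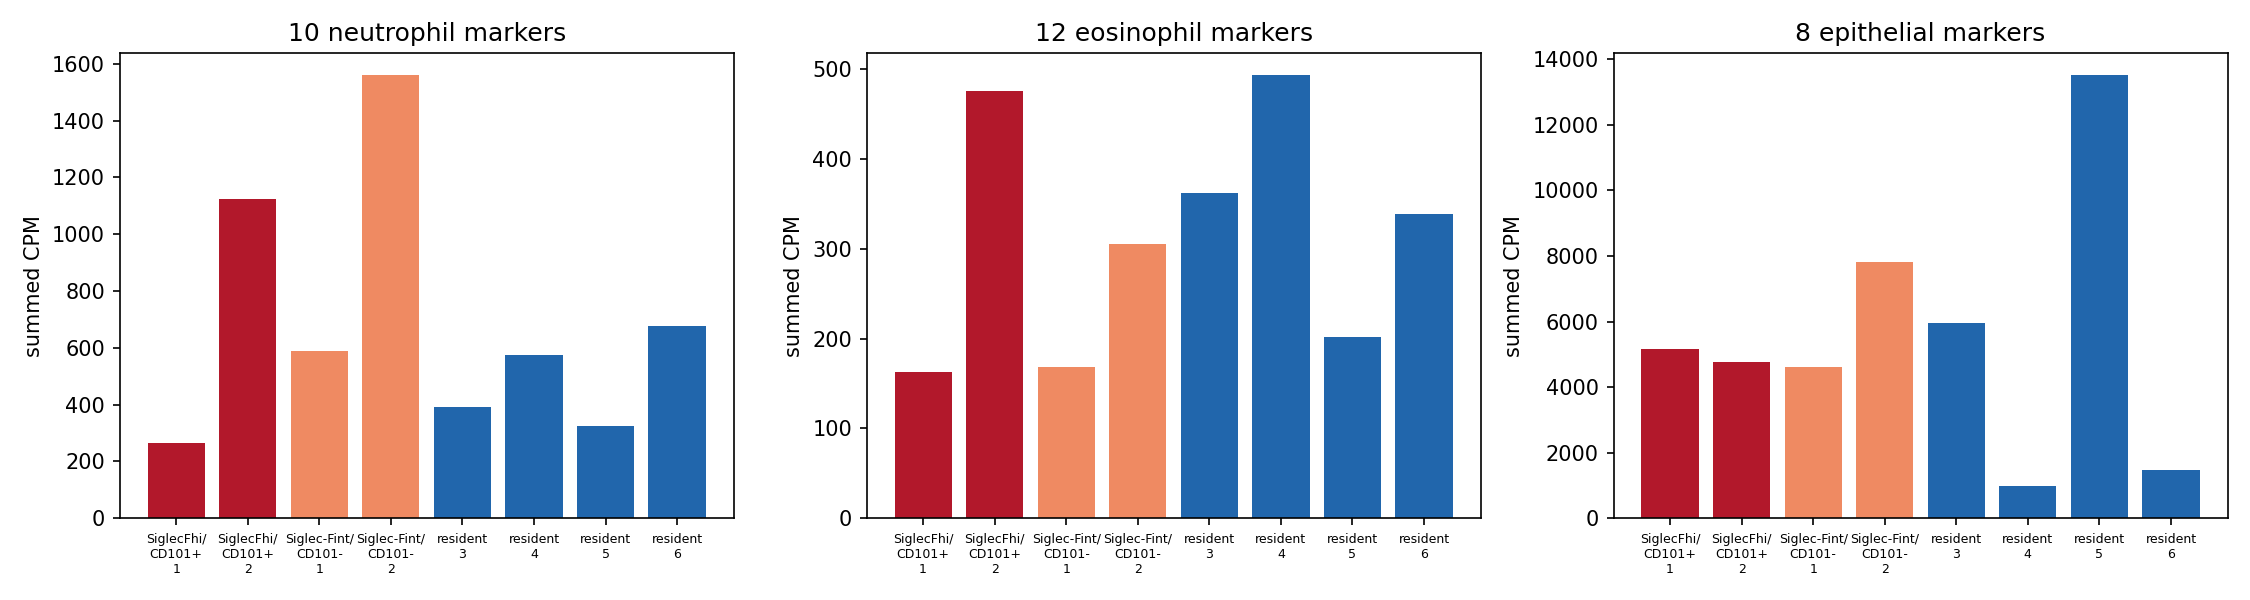
Summed CPM (y axis) of 10 neutrophil, 12 eosinophil and 8 epithelial marker genes in each library, SiglecFhi/CD101+ first, then Siglec-Fint/CD101- and resident. Resident replicate 5 has the highest epithelial sum (13518 CPM), and the neutrophil sum is highest in Siglec-Fint/CD101- replicate 2 (1560 CPM).

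Partners, regulators and receptors of the 8 genes and their products were tested as a list of 20 genes, of which 17 passed the filter and 3 also stood among the 32 neutrophil genes. By edgeR 0 passed in any comparison, and unadjusted p-values under 0.05 went to 0 higher and 3 lower genes for SiglecFhi/CD101+ (Socs3, Spi1 and Timp3), to 1 higher (Timp1) and 0 lower for Siglec-Fint/CD101- against resident libraries, and to 0 higher and 2 lower between the subsets (Socs3 and Timp1). The shares of all tested genes at that level were those given above for the 8 genes. Spi1, which encodes PU.1, had a log2 fold change of -1.71 for SiglecFhi/CD101+ against resident libraries (adjusted p = 0.214 by edgeR). Timp1, an inhibitor that binds MMP9, had 0 counts in SiglecFhi/CD101+ libraries and 30 and 36 counts in Siglec-Fint/CD101- libraries, against 3 in all 4 resident libraries. Its ratio of Siglec-Fint/CD101- to resident libraries was 354, with a 95% counting interval of 116 to 1759 (adjusted p = 0.184 by edgeR). Socs3, which restrains signalling by the G-CSF receptor, was at 13.8 ± 8.26 CPM in SiglecFhi/CD101+ and 108 ± 7.32 CPM in Siglec-Fint/CD101- libraries, against 171 ± 104 CPM in resident libraries, with an adjusted p of 0.1096 for SiglecFhi/CD101+ against resident and 0.214 for SiglecFhi/CD101+ against Siglec-Fint/CD101- libraries. Csf3, the gene of G-CSF itself, had 3 counts in all, and Cebpe 8.

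Relatives of the 8 genes were likewise without a call. Of 12 other S100 genes 11 were tested and of 15 other matrix metalloproteinases 7, and 0 passed edgeR's adjusted threshold in any comparison. S100a4, a calcium-binding protein of motile cells, was at 41.2 ± 18.5 CPM in SiglecFhi/CD101+ and 95.4 ± 70.8 CPM in Siglec-Fint/CD101- libraries, against 185 ± 61.3 CPM in resident libraries (log2 fold change -2.17 ± 0.70, adjusted p = 0.206 by edgeR for SiglecFhi/CD101+). At an unadjusted p under 0.05, 2 S100 genes were lower for SiglecFhi/CD101+ against resident libraries (S100a4 and S100a1) and 0 higher, and 0 either way in the other comparisons. Among the metalloproteinases 1 was lower for SiglecFhi/CD101+ against resident libraries (Mmp19), 0 either way for Siglec-Fint/CD101-, and between the subsets 1 was higher (Mmp2) and 1 lower (Mmp19). For both families the shares of all tested genes at that level were those given above for the 8 genes.

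Among the 6 tested genes, the calprotectin pair had the nearest patterns. The root-mean-square difference of mean-centred log2(CPM + 1) over the 8 libraries was 0.74 for S100a8 and S100a9, and from 1.29 (S100a8 and Csf3r) to 3.12 (Lcn2 and Mmp8) for the other pairs of the 6. For Ngp and Camp, which were not tested and had counts almost wholly in 1 library, it was 0.31. Among the 5746 other genes of at least median level, Fer (0.38), Eng (0.44) and Pdk1 (0.47) were nearest to S100a8, and Calcrl (0.36), Rnase4 (0.42) and Ankrd33b (0.43) to S100a9. Nearest to Lcn2 were Pcdh9 (0.78), Ptprf (0.87) and Cxcl15 (0.94), at a median of 2.79 over all genes compared. Eif3m (0.42) was nearest to Mmp8, Rps27rt (0.40) to Mmp9 and Chmp3 (0.57) to Csf3r. These distances are descriptions over 8 libraries that share 3 groups.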

How the data were processed

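RNA of sorted eosinophils was sequenced by CEL-Seq in 8 libraries, per the labels' protocols. The authors deposited whole-number counts per Ensembl gene, not normalized, with unequal totals. Tools listed by the submitters' processing notes are DESeq2 1.28.0, HTSeq 0.6.1, Bowtie2 2.2.6, TopHat2 2.1.0, cutadapt 1.10, Trim Galore and FastQC 0.11.5. Genome build, strand setting and handling of molecular identifiers: not given in the sources used here; counted amplification copies would make counting intervals too narrow. Symbols and positions came from GENCODE (GRCm38) by Ensembl identifier, with 37 of 54446 unmatched.

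The counts went into edgeR 4.0.16 under R 4.3.3: TMM, filterByExpr (11828 genes kept), a group-means model over all 8 libraries, two-sided quasi-likelihood tests with robust fitting at a Benjamini-Hochberg adjusted p under 0.05 over all genes. SE is the absolute log2 fold change over the square root of F. The procedure was also run on simulated data, with the outcome not given here. The common biological coefficient of variation of the fit was 1.12, so a gene that did not pass is not shown to be unchanged. Alternatives included other normalizations, DESeq2 1.42.0, limma-voom (limma 3.58.1), other filters, fits on the compared groups, a replicate block and leaving out libraries. The 8 genes, the lists and the tests were chosen with earlier results of these data known. Named genes are the 8, up to 4 of a list with the smallest p, and the nearest genes by pattern. Ltf, Chil1, Pglyrp1, Mpo, Elane, Ly6g, Stfa2l1, Cd177, Csf3, Cebpe and the eosinophil markers were named after their values were seen.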

Additional observations from a re-analysis of the deposited data

Results flagged for a closer look

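In the group of 4 resident libraries, 3 of the 8 genes had a highest library that stood apart by Dixon's gap above its 95% critical value for 4 samples. That critical value assumes normally distributed levels, so its rate of 1 in 20 does not hold for sparse, skewed counts. A gene counted in 1 library alone has a gap of 1 whatever its count. Lcn2 was at 68.5 CPM in resident replicate 5, where the next library had 12.7 CPM, a gap of 0.890 of the group's range. Ngp was at 6.85 CPM in resident replicate 3, where the next library had 0.140 CPM, a gap of 0.980 of the range. Camp was at 3.84 CPM in the same replicate 3, with 0 counts in the other resident libraries, which fixes its gap at 1. S100a8 came close without reaching the critical value, with a gap of 0.799 and its highest value also in replicate 5.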

How the results depend on the processing

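None of the 8 genes passed edgeR's adjusted threshold in the 3 comparisons, and that count was 0 under each alternative except these: 1 (Lcn2) without the filter on low counts against resident libraries, for either subset, and 1 (Lcn2) with DESeq2 for Siglec-Fint/CD101-. The count over all genes was 3 for SiglecFhi/CD101+ against resident libraries, and 7 with library totals alone, 1082 with DESeq2, 370 without the filter, 1 with the compared groups alone, 10 without resident replicates 3 and 5 (an alternative chosen after seeing the data), and 1 to 133 with 1 library left out, with 131 and 133 without Siglec-Fint/CD101- replicate 1 or 2. For Siglec-Fint/CD101- against resident libraries it was 7, and 3 with totals alone, 612 with DESeq2, 2 with limma-voom, 1 with a non-robust fit, 136 without the filter, 1 at 20 counts in 2 libraries, 1 at an adjusted p under 0.01, 0 with the compared groups alone and 0 to 9 with 1 library left out. Between the subsets it was 1, and 1133 with DESeq2, 0 with limma-voom, 85 without the filter, 0 with the compared groups alone, 0 without resident replicates 3 and 5, and 0 to 2 with 1 library left out. The causes were not tested.

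The subsets share the numbers 1 and 2, and the labels do not say whether same-numbered libraries are paired. Deviations of same-numbered libraries from their group means correlated at 0.0069. With 2 libraries per subset the deviations within a subset mirror each other, so this value cannot decide whether the numbers pair them. With a replicate block 4 genes were called between the subsets, 0 of them among the 8.

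Log2 fold changes changed sign in 18 of the refits, all of values that did not pass. For SiglecFhi/CD101+ against resident libraries Csf3r was 0.27 with RLE, 0.26 with DESeq2, 0.31 with limma-voom and -0.54 to 0.47 with 1 library left out, S100a9 -0.17 with totals alone and -0.19 to 1.19, and Mmp9 -6.69 to 2.12. For Siglec-Fint/CD101- against resident libraries totals alone gave S100a8 -0.69, S100a9 -0.29 and Mmp9 -0.57, limma-voom gave Mmp9 -0.61, and Mmp9 was -6.71 to 1.07 with 1 library left out. Between the subsets S100a9 was 0.12 with totals alone and -0.97 to 0.12 with 1 library left out, Lcn2 -2.34 to 0.74 and Mmp9 -6.76 to 7.82. Mmp8 had no value where both groups were left without a count or the filter removed it. A fitted value near -7 or 8 rests on a group without counts and is no bound.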
